A study of Mus musculus with 4 samples.

Results

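The inducible heat shock proteins and their partner chaperones were followed as 9 genes, Hspa1a, Hspa1b, Hsp90aa1, Hsph1, Dnajb1, Dnajb4, Hspa8, Hspe1 and Hspd1, taken by name from the 13838 genes of a single-cell count matrix. All 9 were present in it. The matrix covers bronchoalveolar lavage fluid, the cells rinsed out of the air spaces, from C57BL/6 mice, and each group is a single library made from the pooled cells of 7 animals. The HDM+APM group breathed aerosolised Afghanistan dust (APM) in whole-body chambers on 12 consecutive days, 6 hours daily, at a concentration of 5 mg/m3. From 9 days afterwards it was given the allergen house dust mite (HDM) by the nose, 10 µg at sensitization on days 22 and 29, and was challenged with HDM on days 36, 37 and 38. The HDM group breathed filtered air and received HDM, the APM group inhaled APM and received saline, and the control group breathed filtered air and received saline. Lavage took place on day 39 in all groups. The labels give neither age nor sex, and the pooled mice cannot be told apart. Viability at harvest was 60 to 80%.

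Heat shock proteins are chaperones, which bind unfolded proteins and help them fold, refold or be degraded. Hsp70 proteins do this in cycles of ATP use driven by J-domain partners and by exchange factors, and hand some clients on to Hsp90. When unfolded proteins accumulate, the transcription factor HSF1 binds heat shock elements, inverted repeats of GAA, and switches on the inducible members within minutes. In the lung, alveolar macrophages are the resident phagocytes that clear inhaled particles, and they lie among the first cells that dust and allergen meet.

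The members differ in role. Hspa1a and Hspa1b encode the stress-inducible Hsp70, and Hspa8 encodes its constitutive form, Hsc70. Dnajb1 and Dnajb4 encode J-domain partners of Hsp70, and Hsph1 encodes Hsp110, an exchange factor of Hsp70. Hsp90aa1 encodes the inducible cytosolic Hsp90. Hspd1 and Hspe1 encode the chaperonin Hsp60 and its lid Hsp10, which fold proteins inside mitochondria.

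In GENCODE vM21 on mm10, Hspa1a (ENSMUSG00000091971.3, chr17:34969190-34972156, minus strand) and Hspa1b (ENSMUSG00000090877.3, chr17:34956436-34959238, minus strand) each consist of 1 exon and lie 9951 bases apart. Hspe1 (chr1:55088132-55091307, plus strand) and Hspd1 (chr1:55077835-55088243, minus strand) are divergent neighbours with overlapping annotated ends. The other members lie on chromosomes 12 (Hsp90aa1), 5 (Hsph1), 8 (Dnajb1), 3 (Dnajb4) and 9 (Hspa8). RefSeq windows of the 250 bases before a start, on GRCm38.p6, were at hand for 7 of the 9 members. They were searched for GAANNTTC and TTCNNGAA, 2 inverted repeats of the heat shock element core that read the same on both strands, with overlapping matches counted. A match was present for 6 of these 7 genes, all but Dnajb1, against 14.5% of 27025 genes and 12.8% of 32851 windows in all. The 7 genes had 11 windows, and beside those of Dnajb1, 1 window of Dnajb4 and 1 of Hspd1 held no match. The Hspe1 and Hspd1 matches were the same bases, so the 6 genes do not stand for 6 separate matches. The windows of the 2 Hsp70 genes are shown because they carry the clearest pattern below, that of Hsph1 as a second cytosolic member, and the stretch between the Hspe1 and Hspd1 starts because both genes share it. Capitals mark the matches.
Hspa1a, chr17:34972157-34972406, minus strand: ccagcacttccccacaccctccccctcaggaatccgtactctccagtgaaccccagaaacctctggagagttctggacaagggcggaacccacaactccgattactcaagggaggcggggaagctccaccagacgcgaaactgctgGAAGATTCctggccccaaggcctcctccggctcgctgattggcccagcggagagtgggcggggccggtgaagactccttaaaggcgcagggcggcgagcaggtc
Hspa1b, chr17:34959239-34959488, minus strand: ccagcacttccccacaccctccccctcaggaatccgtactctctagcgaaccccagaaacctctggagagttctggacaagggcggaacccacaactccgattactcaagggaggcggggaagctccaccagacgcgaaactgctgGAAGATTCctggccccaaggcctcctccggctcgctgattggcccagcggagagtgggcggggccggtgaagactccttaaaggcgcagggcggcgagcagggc
Hsph1, chr5:149636337-149636586, minus strand: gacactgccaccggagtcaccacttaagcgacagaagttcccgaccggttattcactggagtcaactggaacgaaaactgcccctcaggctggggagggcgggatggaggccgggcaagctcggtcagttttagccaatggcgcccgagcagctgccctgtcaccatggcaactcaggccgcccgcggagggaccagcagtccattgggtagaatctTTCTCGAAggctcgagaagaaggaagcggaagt
Hspe1 and Hspd1, chr1:55087933-55088147, plus strand: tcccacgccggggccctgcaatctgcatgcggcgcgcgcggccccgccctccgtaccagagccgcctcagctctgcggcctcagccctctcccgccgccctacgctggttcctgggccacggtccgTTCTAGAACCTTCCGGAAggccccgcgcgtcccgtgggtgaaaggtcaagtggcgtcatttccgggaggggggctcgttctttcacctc
The Hspa1a and Hspa1b windows were identical at 247 of 250 bases, and in each the match began at the same place, with its nearest base 96 bases before the start. In the stretch between Hspe1 and Hspd1, 18 bases lay in overlapping matches. A match describes letters and not a bound site.

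The kit reads the 3' ends of transcripts, so the ends decide whether near copies can be told apart. The last 500 bases of the Hspa1a and Hspa1b transcripts were 52.3% identical, and no 50-base window of either was found in another gene. The same held for Hsp90aa1, Hsph1, Dnajb1, Dnajb4 and Hspd1. For Hspa8, 81.8% of such windows, and for Hspe1, 53.2%, were also present in transcripts of pseudogenes, so the counts of these 2 genes are uncertain to that extent.

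Values are unique molecular identifiers (UMIs), each counting 1 captured transcript, summed over the cells of a class and scaled to a class total of 1000000 (CPM). Intervals in parentheses are exact 95% intervals for counting error. They do not cover differences between mice, which 1 library per group cannot show, so no test across groups was possible and no p-value is given. The libraries held 1123 cells (HDM+APM), 994 cells (HDM), 3890 cells (APM) and 3918 cells (control), with medians of 4780, 1380, 2637 and 3417 UMIs per cell in the same order, and 84 of the 9925 cells carried a barcode also found in another library. Cells were classed by the 17 clusters of the deposited annotation. Of the 10 leading genes of Macrophage 8, 3 were markers of monocyte-derived or interstitial macrophages and none of alveolar macrophages. The cluster the authors named classical monocyte had 5 such macrophage markers and no monocyte marker there, and the one they named epithelial had 5 epithelial and 4 red blood cell markers, so both are called here by the authors' names.

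Several members were above all a signature of 1 cluster, Macrophage 9. Its 10 leading genes by fold over all other cells held no marker of alveolar macrophages, as in Macrophages 2, 7, 8 and 10. They included Hspa1a, Hspa1b, Hsp90aa1 and Hsph1, beside Efr3b, Ifrd1, Cxcl2, Gdf15, Jun and Atf3. Since the cells were clustered on genes such as these, the levels of Macrophage 9 describe how it was defined and are no finding about it. It held 65 cells of the APM library and 70 cells of the control library, which is 1.75% (1.35 to 2.22) and 1.80% (1.41 to 2.27) of the cells in Macrophages 1 to 10. The HDM+APM and HDM libraries held none among 156 and 199 such cells, which allows shares of up to 2.34% and 1.84% by the exact intervals. The HDM limit lies within the intervals of the APM and control shares, and the HDM+APM limit lies above them. A difference in the share of Macrophage 9 was therefore not detectable at this number of cells.

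Hspa1a stood at 5514 CPM (5332 to 5701) in Macrophage 9 and Hspa1b at 2479 CPM (2357 to 2605), with 4 libraries summed. The next clusters in order were Granulocyte-like for Hspa1a, at 397 CPM (303 to 511), and Macrophage 7 for Hspa1b, at 73.2 CPM (62.8 to 84.8). Both genes were detected broadly but thinly elsewhere, and the low end was formed by B cells, T cells and the cluster named classical monocyte. That cluster had 6.71 CPM of Hspa1a and 10.98 CPM of Hspa1b. B cells 2 held 6.01 CPM (3.28 to 10.1) of Hspa1a and 4.29 CPM (2.06 to 7.89) of Hspa1b. Macrophage 10, a small proliferating cluster, held no Hspa1b UMI, which allows up to 25.8 CPM by the exact interval. Most neighbours in these orders overlapped in their intervals, with 3 of the 16 neighbouring pairs apart for Hspa1a and 1 for Hspa1b. The Granulocyte-like cells were shallow, with a median of 692 UMIs, and 1 of them held 28 of the 60 Hspa1a UMIs. Without that cell their Hspa1a level was 214 CPM, and with the libraries weighted equally it was 113 CPM, so their place in the order rests on few cells.

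**Figure D1:**
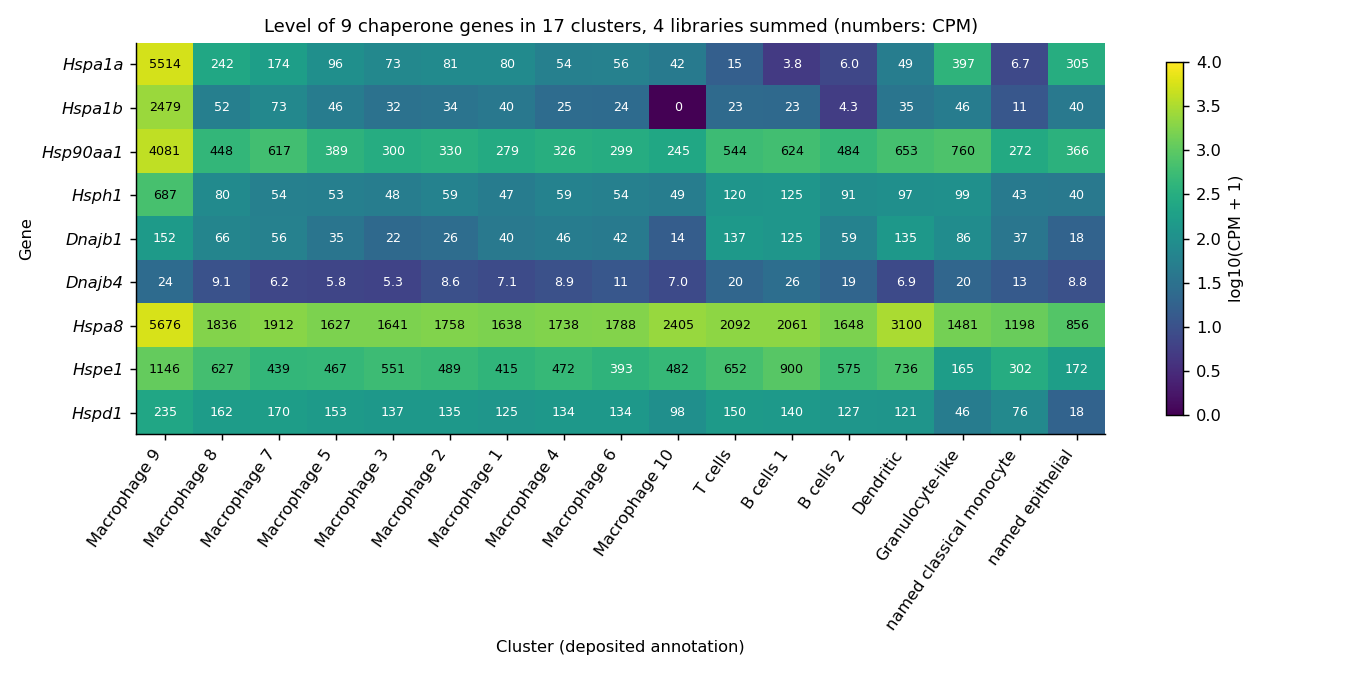
Level of each of the 9 genes (rows) in each of the 17 clusters (columns), with the 4 libraries summed; the number in each square is CPM and the colour is log10(CPM + 1). Macrophage 9, the first column, holds the highest level of every gene but Dnajb4, which stood at 26.5 CPM in B cells 1 and 23.8 CPM in Macrophage 9, with overlapping intervals.

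The constitutive Hspa8 varied less. It stood at 5676 CPM (5492 to 5865) in Macrophage 9, at 3099.9 CPM in Dendritic cells, between 1627 and 2405 CPM in the other macrophage clusters, and at 856 CPM (740.2 to 986) in the cluster named epithelial. Among the J-domain partners, Dnajb1 was about as high in T cells (137 CPM, 117 to 161), Dendritic cells (135 CPM, 96.3 to 185) and B cells 1 (125 CPM, 85.9 to 175) as in Macrophage 9 (152 CPM, 123 to 186), with overlapping intervals, and stood at 22.0 CPM (18.5 to 25.9) in Macrophage 3. Dnajb4 was scarce everywhere, from 5.30 to 26.5 CPM. T cells and B cells 1 thus held little inducible Hsp70 mRNA but relatively much of its J-domain partner.

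Hsph1 also had lymphocytes next to Macrophage 9 in its order. It had 687 CPM (624 to 755) in Macrophage 9, 125 CPM in B cells 1 and 119.7 CPM in T cells, and 47.0 CPM (40.2 to 54.5) in Macrophage 1. Hsp90aa1 had 4081 CPM (3925 to 4242) in Macrophage 9, then 760.2 CPM (628 to 912) in Granulocyte-like cells and 653 CPM (563 to 753) in Dendritic cells. The mitochondrial pair was lowest in the Granulocyte-like cluster and in the one named epithelial: Hspe1 had 165 CPM (107 to 244) in Granulocyte-like cells and 172 CPM (122 to 235) in cells named epithelial, against 1146 CPM (1064 to 1232) in Macrophage 9 and 899.8 CPM (789 to 1022) in B cells 1. Hspd1 had 46.3 CPM (18.6 to 95.3) and 17.7 CPM (4.81 to 45.2) in the same Granulocyte-like and epithelial clusters, and 235 CPM (199 to 276) in Macrophage 9.

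Within Macrophage 9, the 2 libraries that held it were alike. Hspa1a had 5376 CPM (5107 to 5654) in the APM library and 5625 CPM (5379 to 5879) in the control library, and Hspa1b had 2343 CPM (2167 to 2529) and 2587 CPM (2421 to 2761) in APM and control. Hspa8 had 5329 CPM in APM and 5953 CPM in control, a ratio of 0.895 (0.837 to 0.957). Hsp90aa1 ran the other way, with 4582 CPM (4334 to 4839.6) in APM and 3682 CPM (3484 to 3889) in control, but 1 APM cell held 318 of its 1281 UMIs there, and without the top cell of each library it had 3550.1 CPM in APM and 3474 CPM in control. None of the members was called different, where a call means at least 1.5-fold on the log2(CPM + 10) scale with a ratio interval that excludes 1. Across all genes of Macrophage 9 with at least 20 UMIs, 3.89% were called higher and 5.23% lower.

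A cluster of 1.67% of the APM cells and 1.79% of the control cells thus carried much of the mRNA of some of these genes. Macrophage 9 held 2.46% of all UMIs in the APM library and 2.31% in the control library, but 63.1% of the Hspa1a UMIs in APM and 53.4% in control, and 66.8% of the Hspa1b UMIs in APM and 57.0% in control. For Hsp90aa1 the shares were 23.4% in APM and 20.2% in control, and for Hsph1 21.2% in APM and 25.8% in control. The constitutive and mitochondrial members were less concentrated there, with 7.12% in APM and 7.64% in control for Hspa8, and 3.84% in APM and 4.01% in control for Hspd1. So were the J-domain members, with 7.23% in APM and 10.7% in control for Dnajb1, and 6.52% in APM and 8.11% in control for Dnajb4.

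**Figure D2:**
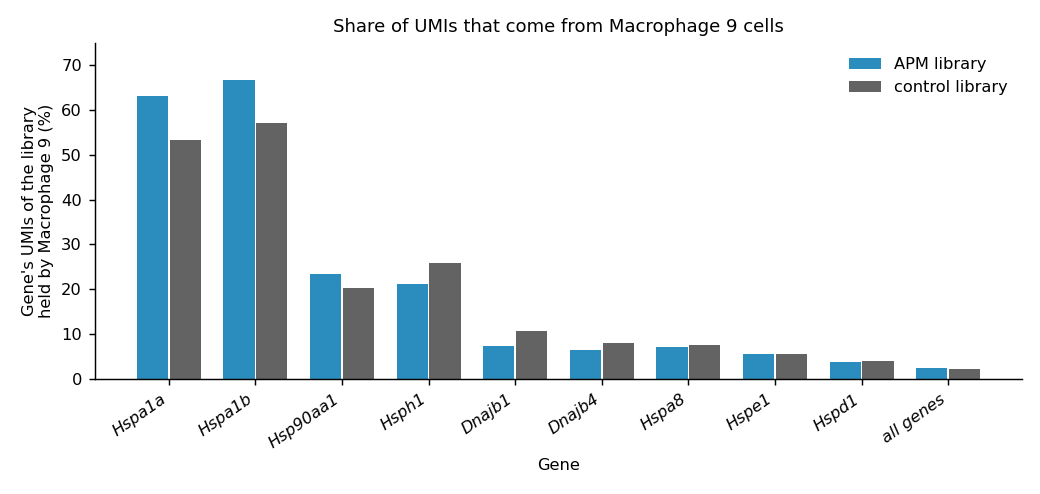
Share of each gene's UMIs (vertical axis, percent of the library's UMIs of that gene) that came from Macrophage 9 cells, in the APM library (blue, left bar) and the control library (grey, right bar). The share passed 50% for Hspa1a and Hspa1b in both libraries, against 2.46% (APM) and 2.31% (control) for all genes together.

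Set beside Macrophages 1 to 7 and 10 of the same library, all 9 members were higher in Macrophage 9, by 87.8-fold (80.0 to 96.4) in APM and 53.8-fold (50.3 to 57.5) in control for Hspa1a, down to 1.57-fold (1.20 to 2.02) in APM and 1.77-fold (1.40 to 2.19) in control for Hspd1. Of all genes, 6.56% in APM and 5.99% in control were called higher in Macrophage 9, and 13.2% in APM and 10.8% in control lower. These counts again describe the definition of the cluster, and a share of each list below belongs to the genes that defined it.

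The wider chaperone system was raised in part. Of 35 heat shock regulators and cytosolic co-chaperones, 34 were measured in APM and 32 in control, with 18 higher and 2 lower in APM and 16 higher and 2 lower in control. Dnaja1, a J-domain partner of Hsp70, had 701 CPM in Macrophage 9 against 222 CPM in the other macrophages of the APM library, and 533 against 168 CPM in control. Bag3, an Hsp70 co-chaperone that steers clients to autophagy, was 3.08-fold (1.94 to 4.67) higher in APM and 2.23-fold (1.40 to 3.39) higher in control. Fkbp5, an Hsp90 co-chaperone induced by glucocorticoids, was lower, at 17.9 against 68.0 CPM in APM and 8.56 against 36.0 CPM in control.

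Further lists were called in part. In the cytosolic chaperonin TRiC, 3 of 7 measured subunits were called higher in APM and 1 of 7 in control, with Cct3 higher in both. Among 10 mitochondrial chaperones and proteases, 2 were higher in each library, with Hspa9, the mitochondrial Hsp70, at 429 against 181 CPM in APM and 436 against 187 CPM in control. Of 18 endoplasmic reticulum chaperones, 2 were higher and 5 lower in APM, and 2 higher and 3 lower in control. The 2 higher genes were Ddit3, a transcription factor of the unfolded protein response, and Dnajb9 in both libraries. Hspa5, the Hsp70 of the endoplasmic reticulum, stood at 526 against 519.8 CPM in APM and 445 against 508 CPM in control. Immediate early genes were split: 5 of 15 were higher and 3 lower in APM, and 5 of 17 higher and 2 lower in control, with Jun at 297 against 28.0 CPM and Fos at 32.2 against 76.3 CPM in APM. None of 15 cell cycle genes was higher, and 9 in APM and 5 in control were lower. The reference included the proliferating Macrophages 7 and 10, so this last count was set in part by the choice of reference.

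Single cells showed how uneven the inducible Hsp70 was. A cell was counted as high with at least 10 UMIs of Hspa1a and Hspa1b together, a minimum chosen after the values were seen. There were 62 such cells of 3890 in the APM library and 77 of 3918 in the control library. The HDM+APM library had 0 of 1123, which allows up to 0.328%, and the HDM library 1 of 994, a Granulocyte-like cell. The high cells held 72.7% of the pair's UMIs in APM and 67.5% in control. The HDM+APM and HDM libraries hold few macrophages. Within Macrophages 1 to 10, high cells were 0 of 156 in HDM+APM, which allows up to 2.34%, and 0 of 199 in HDM, which allows up to 1.84%. They were 59 of 3715 in APM (1.59%, 1.21 to 2.04) and 77 of 3886 in control (1.98%, 1.57 to 2.47). A lower share in HDM+APM than in APM or control was therefore not detectable among macrophages, and the HDM limit lies within both the APM and the control interval. Of the high cells, 14 in APM and 21 in control lay outside Macrophage 9, mostly in Macrophages 3, 5, 7 and 8. The pair made up at most 5.34% of a high Macrophage 9 cell's UMIs in APM and 4.21% in control, but reached 9.33% in 1 APM cell and 19.8% in 1 control cell outside it, both in Macrophage 8 and both shallow.

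**Figure D3:**
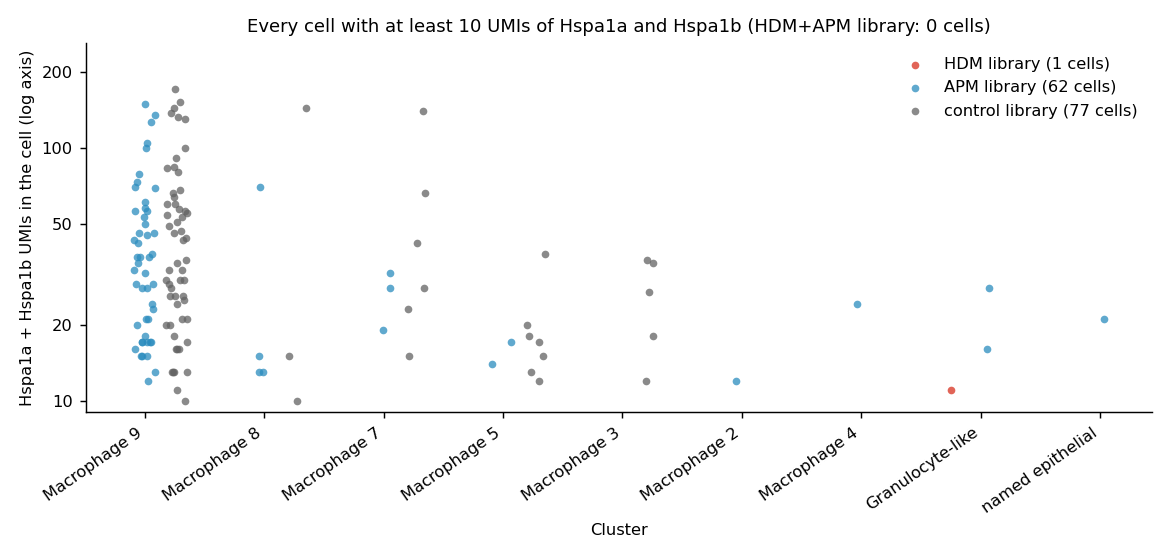
Each point is a cell with at least 10 UMIs of Hspa1a and Hspa1b together, by cluster (horizontal axis) and library (colour), with the UMIs of the pair on a log axis. Of the 62 APM cells and 77 control cells, 48 and 56 lay in Macrophage 9, and the HDM+APM library had none.

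With every cell thinned to 1000 UMIs, at least 1 Hspa1a UMI was found in 76.9% of Macrophage 9 cells in APM and 88.6% in control, and in 3.97 to 8.51% of the APM cells in Macrophages 1 to 7 and 6.29 to 11.2% of the control cells in Macrophages 1, 2, 3, 5 and 7. B cells 2 had 0.25%, the lowest of the units with at least 50 cells. T cells had 0.758% in HDM+APM and 1.36% in HDM. In Macrophage 8 the shares were 2.33% in HDM+APM, 4.13% in HDM, 4.96% in APM and 5.80% in control, with overlapping intervals. Before thinning, 87.7% of Macrophage 9 cells in APM and 91.4% in control were positive. In thinned Macrophage 9 cells, the top 10% of cells held 34.9% in APM and 30.3% in control of the UMIs of the 6 inducible members, and 21.5% in APM and 21.3% in control of those of Hspa8, Hspe1 and Hspd1. The inducible members had more UMIs there, 995 in APM and 909 in control, than the constitutive ones, 474 in APM and 521 in control. The higher share for the inducible members was not particular to Macrophage 9. In the control library, the top 10% held 53.1% and 25.5% in Macrophage 7 and 42.5% and 23.9% in Macrophage 1, inducible members first. In both, the median cell held 0 UMIs of the inducible members.

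Joint detection of 2 members in the same thinned cells, set against what their separate shares predict, varied between pairs. For Hspa1a with Hsp90aa1, 9 of 10 clusters and libraries had a ratio of observed to expected cells above 1, with a median of 1.21. For Hspa1b with Hspa8 6 of 11 did, with a median of 1.00, for Hsph1 with Hspd1 2 of 5 did, with a median of 0.985, and for Dnajb4 with Hspa8 2 of 4 did, with a median of 0.948. Only units of at least 200 cells outside Macrophage 9, with at least 5 cells expected to hold both members, were used. Pairs without such a unit were left out, among them Hspa1a with Hspa1b. The medians of the remaining pairs ran from 0.421 (Hspa1b with Hspd1) to 2.04 (Hsph1 with Dnajb1), each of these 2 from 1 unit. Cells of a unit share a library and its free RNA, and these ratios carry no test.

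The question whether inhaled dust alone moved these genes is addressed by APM against control. In Macrophages 1 to 7, 9 and 10 summed (3501 APM and 3776 control cells), none of the 9 members was called, against a background of 0.78% of 10893 genes called higher and 0.496% lower. Hspa1a had 199.9 CPM in APM and 234 CPM in control, and Hspa1b had 90.0 CPM in APM and 105 CPM in control. Because Macrophage 9 held most of both genes' UMIs, the comparison was repeated without it, as an alternative added after the data were seen. Without it, Hspa1a had 61.2 CPM in APM and 105 CPM in control, 1.71-fold lower (1.56 to 1.88), and was called. Hspa1b had 29.6 CPM in APM and 45.3 CPM in control, 1.53-fold lower (1.33 to 1.76), but was not called on the log2(CPM + 10) scale. Without Macrophage 9, 0.783% of 10855 genes were called higher and 0.544% lower. The other 7 members had ratios between 1.01 and 1.12. Since Macrophage 9 was clustered on genes such as these, leaving it out removed cells by their own level. It held 63.1% of the Hspa1a UMIs in the APM library and 53.4% in control. The remaining class also differed in make-up. Macrophages 4 and 6, at 54.4 and 55.7 CPM of Hspa1a, had 1033 and 689 APM cells but 22 and 42 control cells. The part of these differences in the call was not tested.

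The lower inducible Hsp70 in APM recurred in some clusters and not in others. In Macrophage 3, Hspa1a had 47.2 CPM in APM and 77.8 CPM in control, and Hspa1b had 11.8 CPM in APM and 35.4 CPM in control, with both called (background 1.54% higher, 2.25% lower). In Macrophage 5, Hspa1a had 67.3 CPM in APM and 121 CPM in control, and Hspa1b had 32.7 CPM in APM and 56.8 CPM in control, with both called (background 1.07% higher, 2.85% lower). Both stayed apart without the top cell of each library, at 1.84-fold lower for Hspa1a in Macrophage 3 and 1.79-fold lower in Macrophage 5. In thinned cells, the shares with Hspa1a had overlapping intervals. They were 5.03% in APM and 6.29% in control in Macrophage 3, and 8.41% in APM and 8.21% in control in Macrophage 5. Before thinning they were 17.9% and 28.9% in Macrophage 3, and 20.9% and 32.5% in Macrophage 5, in APM and control. In Macrophage 3, 5 of 906 control cells were high cells. In Macrophage 5, 7 of 560 control and 2 of 464 APM cells were. The part of high cells in these differences was not tested.

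In Macrophage 7, the proliferating cluster, Hspa1a had 79.4 CPM in APM and 299.9 CPM in control, and Hspa1b had 46.3 CPM in APM and 112 CPM in control (background 2.15% higher, 3.35% lower). There 1 control cell held 107 of 319 Hspa1a UMIs. Without the top cell of each library, Hspa1a had 62.2 CPM in APM and 200.3 CPM in control. In control, 6 of 241 cells were high cells, with 107, 44, 26, 24, 13 and 13 Hspa1a UMIs. In APM, 3 of 307 cells were, with 21, 17 and 4. The part of these cells in the difference was not tested. In thinned cells, Hspa1a was found in 7.82% of APM cells (5.07 to 11.4) and 11.2% of control cells (7.51 to 15.9), with overlapping intervals. Before thinning the shares were 15.3% in APM and 27.8% in control. In Macrophage 1, Hspa1a had 101 CPM in APM and 79.6 CPM in control, a ratio of 1.27 (0.791 to 1.95). In Macrophage 2 it had 65.3 CPM in APM and 92.2 CPM in control, a ratio of 0.708 (0.554 to 0.904). Neither was called, nor was any other member there, with backgrounds of 1.64% higher and 1.85% lower in Macrophage 1 and 1.58% higher and 2.08% lower in Macrophage 2. Differences between the clusters were not tested.

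In Macrophage 8 (214 APM and 110 control cells), Hspa1a had 429.5 CPM in APM and 1182 CPM in control, Hspa1b had 43.6 CPM in APM and 133 CPM in control, and Dnajb1 had 59.1 CPM in APM and 121 CPM in control. These 3 of 8 measured members were called lower, against 3.16% of 3262 genes, and none higher, against 3.31%. The Hspa1a difference rested on single cells: 1 control cell of 727 UMIs held 141 of the 186 control UMIs and 1 APM cell of 750 UMIs held 67 of the 138 APM UMIs. Without them Hspa1a had 222 CPM in APM and 287 CPM in control, a ratio of 0.771 (0.523 to 1.15), which was not called. In cells with at least 1000 UMIs it had 125 CPM in APM and 163 CPM in control. Without the top cells, Hspa1b had a ratio of 0.412 (0.167 to 0.996) and stayed called, and Dnajb1 had 0.474 (0.222 to 1.01) and was no longer called.

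Allergen alone is addressed by HDM against control. Few macrophages outside Macrophage 8 were left in the HDM library, 60 against 3776 in control. In them Hspa1a had 76.2 CPM in HDM and 234 CPM in control, and Hspa1b had 34.3 CPM in HDM and 105 CPM in control. These 2 of 9 members were called lower, against 2.65% of genes, and none higher, against 6.97%. Without Macrophage 9, which the HDM library lacked, neither was called: Hspa1a had 76.2 CPM in HDM and 105 CPM in control, and Hspa1b had 34.3 CPM in HDM and 45.3 CPM in control. No other member was called either, with 6.91% of genes called higher and 2.61% lower. The 2 calls were thus lost once the Macrophage 9 cells of the control library were left out. As in APM against control, this removed cells by their own level. The HDM class held only 20 Hspa1a and 9 Hspa1b UMIs, with ratio intervals of 0.444 to 1.13 and 0.345 to 1.45 without Macrophage 9. The part of these low counts was not tested.

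In Macrophage 8 (139 HDM and 110 control cells), 8 members were measured, 1 was called higher and 4 lower, against 10.7% of genes higher and 8.57% lower. Hspa1a had 19.6 CPM (9 UMIs) in HDM and 1182 CPM (186 UMIs) in control, 60.3-fold lower (31.1 to 134). Both this comparison and APM against control use the same control cells. Without the top cell of each library, Hspa1a had 17.5 CPM in HDM and 287 CPM in control, 16.4-fold lower (7.67 to 40.4). In cells with at least 1000 UMIs it had 20.2 CPM in HDM and 163 CPM in control, and it was called in both. So the direction held without the top cell, and the size did not. With every cell thinned to 1000 UMIs, 0 members were called lower in this comparison. Dnajb1 could not be called there: it was found in 7 HDM cells at 1 UMI each and 5 control cells at up to 2, short of 20 UMIs.

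The other called members of Macrophage 8 moved less. Hspa1b had 43.5 CPM in HDM and 133 CPM in control (3.07-fold lower, 1.58 to 5.96), and 37.2 CPM in HDM and 83.4 CPM in control without the top cells. Hsp90aa1 had 353 CPM in HDM and 693 CPM in control (1.96-fold lower, 1.53 to 2.52). In cells with at least 1000 UMIs it had 361 CPM in HDM and 489 CPM in control and was not called. Dnajb1 had 58.8 CPM in HDM and 121 CPM in control (2.05-fold lower, 1.08 to 3.83). Hspe1 was the 1 member called higher, with 679 CPM (606 to 759) in HDM and 375 CPM (285 to 484) in control, 1.81-fold (1.37 to 2.44).

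Depth moved with this comparison: the median Macrophage 8 cell had 3056 UMIs in HDM and 1176 UMIs in control, and the share of mitochondrial UMIs had medians of 4.28% in HDM and 3.03% in control. Their part in the result was not tested. In the same cells the lists of endoplasmic reticulum and cytosolic chaperones had different counts, a difference that was not tested. Of 18 measured, 11 were called higher in HDM and none lower, with a median log2 ratio of 1.00 against 0.07 over all genes, and Hspa5 at 1171 CPM in HDM and 369 CPM in control. Of 24 measured heat shock regulators and cytosolic co-chaperones, none was called higher and 3 lower, with a median of -0.22. The members had a median of -0.73, which turned to 0.26 with cells thinned to 1000 UMIs.

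**Figure D4:**
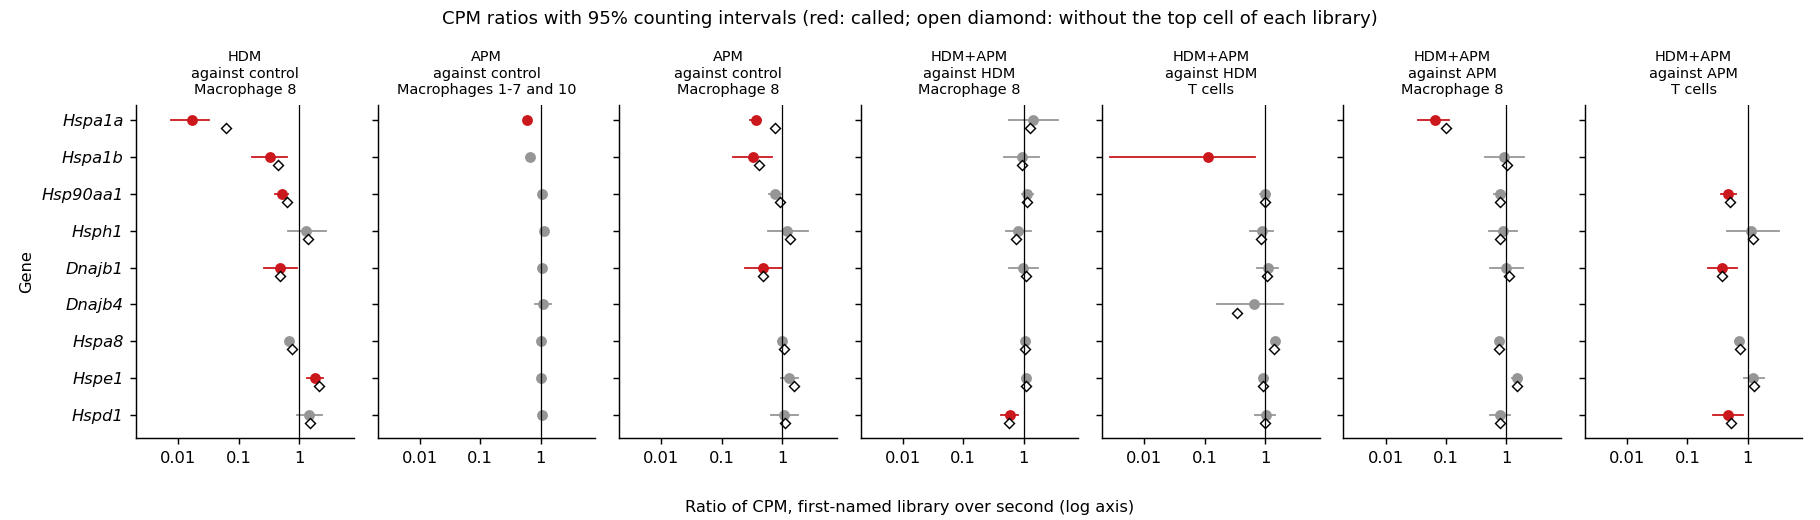
CPM ratio of the first-named library over the second (horizontal log axis) for each member in 7 comparisons, with exact 95% counting intervals. Red points were called, grey points were not, and open diamonds give the ratio without the top cell of each library where that was computed and both levels were above 0. In Macrophage 8, Hspa1a of HDM against control lies at 0.0166 with all cells and farther right without the top cells.

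Dust before allergen is addressed by HDM+APM against HDM. In Macrophage 8 (110 HDM+APM and 139 HDM cells), 1 of 8 measured members was called, Hspd1, with 125 CPM (95.7 to 160.1) in HDM+APM and 211 CPM (171 to 258) in HDM, 1.69-fold lower (1.22 to 2.37), against 6.45% of genes lower and 3.77% higher. Its partner Hspe1 had 745 CPM in HDM+APM and 679 CPM in HDM. Hspa1a had 28.2 CPM (14 UMIs) in HDM+APM and 19.6 CPM (9 UMIs) in HDM, and Hspa1b had 40.3 CPM in HDM+APM and 43.5 CPM in HDM. Both inducible Hsp70 genes were low in both libraries, and the ratio intervals spanned 0.580 to 3.77 for Hspa1a and 0.472 to 1.81 for Hspa1b.

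In T cells (136 HDM+APM and 493 HDM cells), Hspa1b was called lower, with 1 UMI (3.42 CPM) in HDM+APM and 23 UMIs (30.4 CPM) in HDM, against 5.27% of genes lower and 4.22% higher. The ratio was 0.112 with an interval of 0.00273 to 0.693, and the call was lost in cells with at least 1000 UMIs and in thinned cells. Hspa8 had 2535 CPM (2356 to 2724) in HDM+APM and 1758 CPM (1664 to 1855) in HDM, 1.44-fold (1.32 to 1.58), under the fold set for a call. Of 25 measured heat shock regulators and co-chaperones, 2 were called higher and none lower in T cells. Ahsa1, which activates the ATPase of Hsp90, was called higher with 212 CPM in HDM+APM and 95.1 CPM in HDM, as was Fkbp4, with 123 CPM in HDM+APM and 68.7 CPM in HDM. Hsp90aa1 itself had 512 CPM in HDM+APM and 504 CPM in HDM.

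Allergen after dust is addressed by HDM+APM against APM, which shares the HDM+APM cells with the comparison above. In Macrophage 8 (110 HDM+APM and 214 APM cells), Hspa1a was called lower, with 28.2 CPM in HDM+APM and 429.5 CPM in APM, 15.2-fold (8.78 to 28.6), 1 of 8 measured members against 9.69% of genes lower and 8.27% higher. Without the top cells it had 22.4 CPM in HDM+APM and 222 CPM in APM, 9.90-fold lower (5.21 to 20.7), and in cells with at least 1000 UMIs 27.2 CPM in HDM+APM and 125 CPM in APM. Hspa1b had 40.3 CPM in HDM+APM and 43.6 CPM in APM, a ratio of 0.924 (0.444 to 1.98). With cells thinned to 1000 UMIs, no member was called lower. Hspe1 had 745 CPM in HDM+APM and 495 CPM in APM, 1.51-fold (1.25 to 1.82), just under the call on the log2(CPM + 10) scale. As with allergen alone, endoplasmic reticulum chaperones were called higher in 14 of 18 cases and lower in none, and 4 of 26 cytosolic co-chaperones and regulators were called lower. Median depth was 4840 UMIs in HDM+APM and 1218.5 UMIs in APM.

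In T cells (136 HDM+APM and 52 APM cells), 3 of 6 measured members were called lower, against 11.5% of 2074 genes, and none higher, against 5.74%. Hsp90aa1 had 512 CPM (434 to 601) in HDM+APM and 1087 CPM (844 to 1377) in APM, Dnajb1 had 133 CPM (94.8 to 182) in HDM+APM and 352 CPM (220.3 to 532) in APM, and Hspd1 had 140.1 CPM (101 to 190.0) in HDM+APM and 304 CPM (183 to 474) in APM. Dnaja1, a J-domain partner like Dnajb1, had 366 CPM in HDM+APM and 1230 CPM in APM, and Hspa9 had 51.2 CPM in HDM+APM and 256 CPM in APM. In all, 7 of 18 measured heat shock regulators and co-chaperones were called lower and none higher. The 52 APM cells held 62584 UMIs, so these levels rest on few counts. The log2 ratio of Hspd1 changed sign, to 0.23, in thinned cells. Thinning left out the 36.5% of APM T cells that had under 1000 UMIs, so that ratio rests on still fewer counts.

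The share of Hspa1a within the Hspa1a and Hspa1b UMIs differed between libraries and between clusters. In Macrophage 9 it was 69.6% (67.7 to 71.6) in APM and 68.5% (66.8 to 70.2) in control. In APM it lay between 63.2 and 68.2% in Macrophages 1, 2 and 4 to 7 and at 80.0% (67.0 to 89.6) in Macrophage 3. In control it lay between 67.2 and 73.5% in Macrophages 1, 2, 3, 5 and 7 and at 85.7% (57.2 to 98.2) in Macrophage 6. Over whole libraries it was 51.5% (42.7 to 60.2) in HDM+APM, 45.0% (36.2 to 54.0) in HDM, 70.8% (69.3 to 72.4) in APM and 69.9% (68.7 to 71.1) in control.

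Macrophage 8 showed the split within 1 cluster. The share there was 41.2% (24.6 to 59.3) in HDM+APM, 31.0% (15.3 to 50.8) in HDM, 90.8% (85.0 to 94.9) in APM and 89.9% (84.9 to 93.6) in control. Without the top cell of each library it was 35.5% in HDM+APM, 34.6% (17.2 to 55.7) in HDM, 86.6% (77.3 to 93.1) in APM and 71.4% (58.7 to 82.1) in control. The HDM and control intervals did not overlap, but they count each UMI separately, and UMIs came in clumps from single cells. Among the control cells kept, 1 of 671 UMIs held 9 Hspa1a and 1 Hspa1b UMIs, and 1 of 1382 UMIs held 7 and 8. The separation without such cells was not tested. Other low shares were 28.1% (13.7 to 46.7) in HDM T cells and 37.9% (20.7 to 57.7) in the HDM+APM cells named classical monocyte. In the APM library, all 47 UMIs of the pair in 29 Granulocyte-like cells were Hspa1a, 44 of them in 2 cells, as were 44 of 45 in cells named epithelial. The near-identical promoter windows printed above thus belong to 2 genes whose UMI ratio was not the same in all libraries and clusters.

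**Figure D5:**
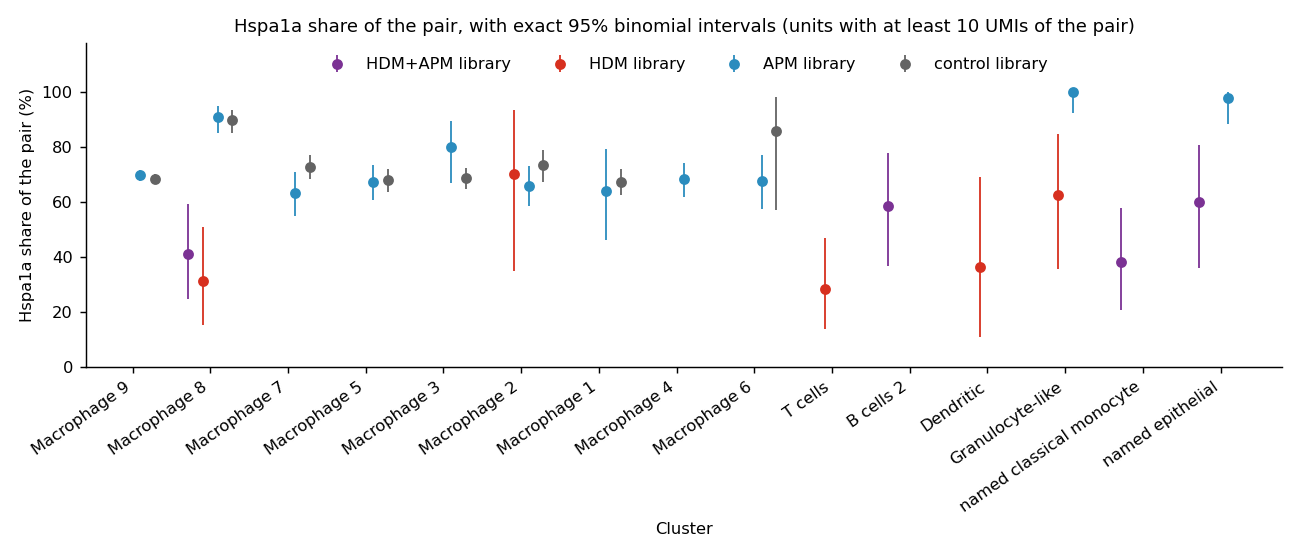
Share of Hspa1a in the UMIs of Hspa1a and Hspa1b together (vertical axis, percent) by cluster and library, for units with at least 10 UMIs of the pair; bars are exact 95% binomial intervals. Macrophage 9 lies at 69.6% (APM) and 68.5% (control), while Macrophage 8 lies at 41.2% (HDM+APM), 31.0% (HDM), 90.8% (APM) and 89.9% (control).

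Genes with the most similar pattern were named by Pearson's correlation of log2(CPM + 10) over 26 units of cluster and library, among 5666 genes. The units share libraries and depth, so the values describe these data and carry no test. Hspa1a had a correlation of 0.84 with Hspa1b, and Hspa1b was most like Efr3b (0.89) and Ifrd1 (0.86), genes that also led Macrophage 9. Hsp90aa1 and Hsph1 were most like each other (0.90), but without Macrophage 9 the genes most like them were Hmces (0.84) and Sp110 (0.91). Dnajb1 was most like Stip1 (0.92), which links Hsp70 to Hsp90, and remained so without Macrophage 9 (0.91). Hspe1 was most like Cct3 (0.89 with and 0.86 without Macrophage 9), a subunit of the cytosolic chaperonin, and Hspd1 most like Ddx21 (0.91), an RNA helicase of the nucleolus, or Naa15 (0.92) without Macrophage 9. Without Macrophage 9 the genes most like Hspa1a and Hspa1b were others, Itfg1 (0.79) and Tmem30a (0.80). By ranks, some pairs were less alike. Spearman's rho was 0.51 for Hspd1 with Ddx21, 0.45 with Naa15 without Macrophage 9, and 0.56 for Hspa1b with Efr3b. It was 0.88 for Dnajb1 with Stip1 and 0.81 for Hspe1 with Cct3, both with Macrophage 9.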

How the data were processed

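The authors deposited raw UMI counts per gene and cell in 1 matrix, with a table giving each cell's library and cluster. Cell Ranger 2.2.0, Seurat 2.3.4 and the build mm10 are listed in the submitters' processing notes, with no role given, and the kit was 10x 3' v2, per the labels. Further filters are not given in the sources used here. Deposited cells were all kept (496 to 9998 UMIs), and no doublet caller was run. UMIs were summed per class with at least 50 cells in both libraries and scaled to CPM (Python 3.11.15, scipy 1.17.1). Levels carry exact Poisson intervals, shares Clopper-Pearson intervals, and ratios exact conditional intervals, all at 95% and for counting error alone. Genes needed 20 UMIs over both libraries. The calculation was checked on simulated counts. TMM factors came from edgeR 4.0.16. Thinning used 1000 UMIs. The members and lists were chosen with earlier results of these data known. List genes named for a comparison of libraries are up to 6 with the largest absolute log2 ratio at 50 CPM or more in a library. Those named for Macrophage 9 against other macrophages were picked after their values were seen. Alternatives covered pseudocount, depth, scaling, call size, free RNA and class definition. A gene that the naming rule picks is not reported here.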

Additional observations from a re-analysis of the deposited data

How the results depend on the processing

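Of 203 main counts and medians recomputed under other settings, 178 stayed within the tolerance of the main value, 24 moved and 1 reversed. In thinned cells or cells with at least 1000 UMIs, counts and medians took only members with at least 20 UMIs left. A member could thus drop out for its counts alone. Log2 ratios of single members carried no such minimum. In Macrophage 8 of HDM against control, the members' median log2 ratio of -0.73 became 0.26 with cells thinned to 1000 UMIs and -0.11 with Macrophages 1 to 10 as 1 class. The 4 members called lower there became 0 when thinned, 2 with a 2-fold call and 2 as 1 class, and the 1 called higher became 2 with TMM factors, 0 with a 2-fold call and 0 as 1 class. Dnajb1 changed from -0.93 to 0.39 as 1 class. In APM against control over Macrophages 1 to 7, 9 and 10, the median of 0.02 became 0.052 when thinned and 0.048 without Macrophage 9, and the count called lower went to 1 without it. The Macrophage 3 median turned to 0.0035 when thinned, and Dnajb1 of Macrophage 8 to 0.011 as 1 class. In HDM+APM against HDM, the 1 member called lower in Macrophage 8 became 0 with a pseudocount of 50 CPM, 2 as a mean over cells, 0 with a 2-fold call and 0 as 1 class. In T cells it became 0 in cells with at least 1000 UMIs, 0 when thinned and 2 as a mean over cells. The thinned T cells held too few Hspa1b UMIs for a call. In HDM+APM against APM, the Macrophage 8 count called higher went to 1 with a pseudocount of 1 CPM, TMM factors, totals without mitochondrial genes or 5% free RNA subtracted, and the 1 called lower became 0 when thinned, 3 as a mean over cells and 2 as 1 class. Hspd1 of T cells changed from -1.06 to 0.23 when thinned, which left out 36.5% of the APM T cells. The cause was not tested in any of these. Equal cluster shares were not run for HDM against control, which had no cluster with at least 20 HDM cells. No paired analysis was possible because each group has 1 library, and for the same reason no library could be left out. Depth limits Dnajb4 most, with too few UMIs for a call in Macrophage 8.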
